A study of Danio rerio with 20 samples.

Results

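Meis2b is a homeodomain protein of the TALE class, transcription factors that bind DNA together with Pbx and Hox proteins and act as Hox cofactors when the hindbrain is patterned. Retinoic acid is a vitamin A derivative that binds nuclear receptors, switches on anterior Hox genes and posteriorises the neural plate. Meis genes are themselves known as retinoic acid targets in several vertebrates. Binding of Meis2b was followed here in whole wild-type zebrafish embryos at 80% epiboly, a stage of gastrulation. One group was exposed to 0.1 µM all-trans retinoic acid (atRA) from 30% epiboly, and the other was an untreated control. Each group had 2 libraries, and nothing in the labels says whether these came from separate clutches, so p-values measure the spread between libraries, which may be technical. Both groups were made by ChIPmentation, in which the transposase Tn5 adds sequencing adapters to the chromatin while it is still on the antibody beads. In whole embryos, binding in fewer cells and weaker binding in each cell cannot be told apart.

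A Meis2b site was a region on chromosomes 1 to 25 (GRCz10) where peaks of both replicates of a treatment overlapped by at least 1 bp. A site was shared when sites of both treatments overlapped, and otherwise atRA-only or control-only. This gave 19662 sites, against 661332 merged regions with a peak in any of the 20 libraries of the series, which also covers Hoxb1b, Raraa (a retinoic acid receptor) and Sox3. Peaks of the 4 Meis2b libraries alone covered 140878 regions, so 13.96% of the regions called in any of these libraries met the rule. The remaining regions did not hold overlapping peaks of both replicates of a treatment and are not described as sites.

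The Meis2b lists held 58690 and 43644 peaks with atRA, against 28388 and 49654 peaks in controls. The groups overlapped in number. The means were 51167 ± 10639 with atRA and 39021 ± 15037 in controls (SD, n = 2 each). The log2 ratio was 0.43 (exact permutation test, two-sided, p = 0.667; the smallest p that 2 against 2 allows is 0.333). It was 0.0275 without control replicate 1, 0.22 without atRA replicate 1 and 0.83 without control replicate 2. Strong peaks separated the groups where all peaks did not. Peaks with the authors' q of at most 1e-05 numbered 20636 and 16328 with atRA, against 7133 and 7353 in controls. Fold enrichment is the authors' ratio of the summit over local background, with 1 added to each. Its 99th percentile was 14.7 and 15.7 with atRA and 9.95 and 9.10 in controls. Sequencing depth, indexed by the background recovered from the peak values, was 0.494 and 0.256 fragments covering a base with atRA, against 0.199 and 0.267 in controls. By this index, which also depends on fragment length, atRA replicate 1 was the deepest library and atRA replicate 2 lay between the controls. The part of depth in the number and the fold enrichment of strong peaks was not tested.

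More Meis2b sites were called in both replicates with atRA than in controls, and most of them were not control sites. With atRA 16427 sites were found in both replicates, and in controls 5619. Of all sites, 14067 were atRA-only (71.5%), 3262 were control-only (16.6%) and 2333 were shared (11.9%). These percentages are the background for all counts of Meis2b sites by class. The rule itself fixes the classes, so they carry no test. Shared sites made up 14.4% of atRA sites and 41.9% of control sites (Wilson 95% intervals 13.8% to 14.9% and 40.7% to 43.2%, for counting error only). By the rule, the number of sites of a treatment follows from how many peaks of its replicates overlap. Of the peaks of atRA replicates 1 and 2, 28.7% and 39.0% overlapped the other replicate, against 20.04% and 11.5% in control replicates 1 and 2. Asking for 1 control library in place of 2 turned the balance, while asking for 1 atRA library widened it. Without control replicate 1 there were 11620 atRA-only, 44674 control-only and 4781 shared sites, and without control replicate 2 there were 12114, 23939 and 4287. Without atRA replicate 1 the 3 counts were 40854, 2919 and 2682, and without atRA replicate 2 they were 55610, 2625 and 2975.

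**Figure D1:**
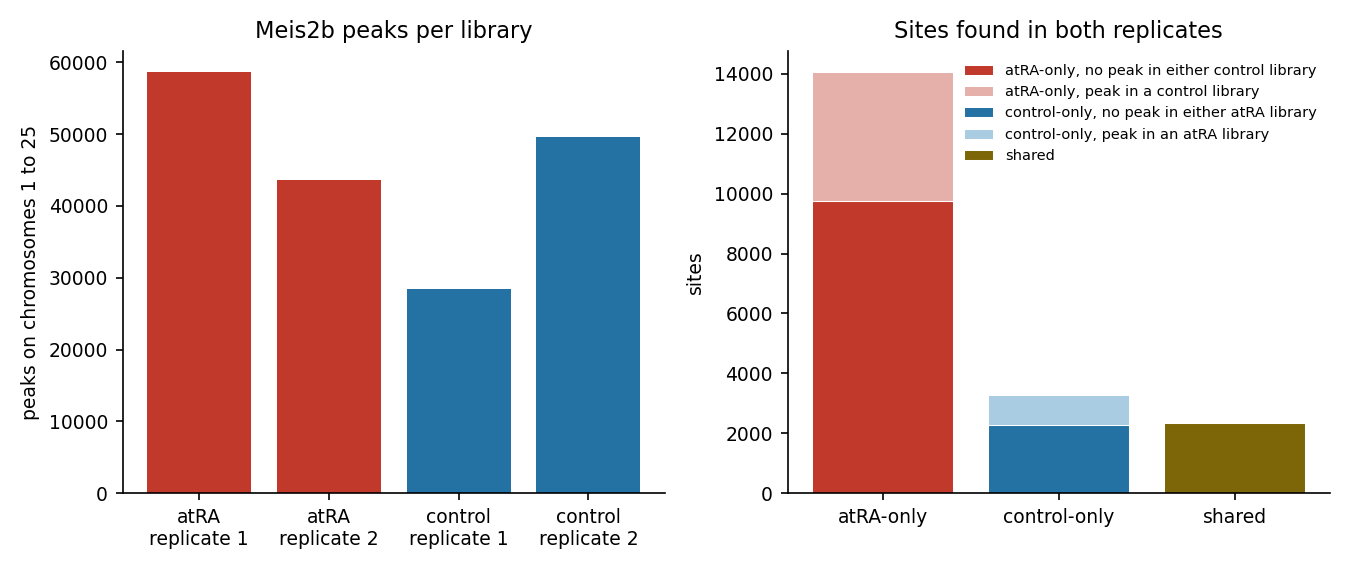
Left, Meis2b peaks on chromosomes 1 to 25 in each of the 4 libraries, with atRA in red and control in blue. Right, number of sites in each class, with the pale part of a bar standing for sites that also held a peak in a library of the other treatment; 9767 of the 14067 atRA-only sites had no peak in either control library.

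Among the atRA-only sites, 9767 (69.4%) had no peak in either control library. A further 1834 held a peak in control replicate 1 alone and 2327 in control replicate 2 alone, and in 139 both controls had peaks that did not overlap each other. Of the control-only sites, 2287 (70.1%) had no peak in either atRA library. The shares without any peak in the other treatment were thus close in both directions, at 69.4% and 70.1%.

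The classes differed in strength. Summit pileup is the number of fragments covering the summit, recovered from the authors' fold enrichment and p-value. At atRA-only sites the median pileup was 11 and 8 fragments in atRA replicates 1 and 2, and the highest were 165 and 148. At control-only sites it was 6 fragments in both control libraries. At shared sites it was 25 and 18 fragments with atRA, against 9 fragments in both controls. Pileup also rises with depth, which was unequal between the libraries. Median fold enrichment was 6.22 and 6.03 at atRA-only sites with atRA, and 5.13 and 5.01 at control-only sites in controls. At shared sites the median fold enrichment was 8.88 and 8.53 with atRA and 6.20 and 5.98 in controls. Each fold enrichment is the peak's own value in its list and is set side by side here without a test. The median background was 0.667 and 0.348 fragments with atRA, against 0.313 and 0.363 in controls. With 1 added to so low a background, fold enrichment also depends on depth.

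Ranked by the authors' p, the strongest sites in controls were nearly all kept with atRA, whereas the reverse did not hold. Of the 1642 atRA sites in the strongest of 10 equal classes, 47.5% were also control sites, and in the weakest class 3.71%. Of the 561 control sites in the strongest class, 95.5% were also atRA sites, and in the weakest 17.3%. With equal numbers, a choice made after seeing the data, 521 of the 1000 strongest atRA sites were shared (52.1%). Of the 1000 strongest control sites, 887 were shared (88.7%). Here and in the classes above, each set was matched against all sites of the other treatment, 5619 in controls and 16427 with atRA. The part of this unequal list length was not tested. A fold enrichment of at least 10 in both replicates was reached by 1810 atRA sites and 153 control sites. Of these, 1077 were atRA-only, 583 of them with no peak in either control library, and 4 were control-only. The part of depth in these counts was not tested.

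**Figure D2:**
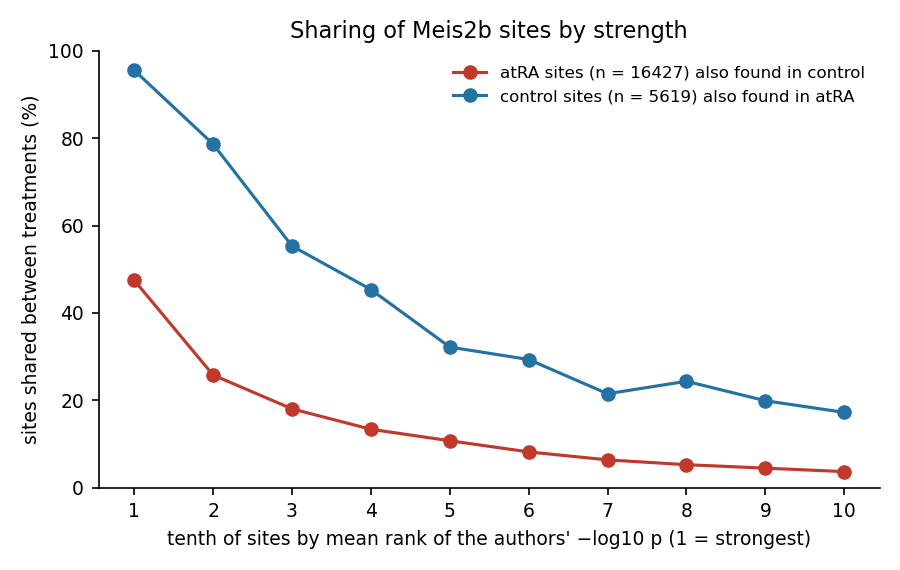
Percentage of Meis2b sites that were shared between treatments (vertical axis), by strength within each treatment from 1 (strongest) to 10 (weakest) by the mean rank of the authors' −log10 p over both replicates. Control sites in blue fell to 17.3% from 95.5% along the ranking, and atRA sites in red lay below them in every class, at 47.5% in the strongest. Control sites were matched against 16427 atRA sites, and atRA sites against 5619 control sites.

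The atRA-only sites with the best ranks and no control peak were tall and wide. The first, on chromosome 7 at 49941823 to 49942598, reached 135 fragments at its summit in atRA replicate 1 and 115 in replicate 2. Hoxb1b, a paralogue group 1 Hox protein that patterns the hindbrain, had 63 and 56 fragments there with atRA and no peak in either control. Sox3, a SoxB1 factor of neural progenitors, had 25 and 20 with atRA and likewise none in controls. The site on chromosome 12 at 8496325 to 8497092 had Meis2b fold enrichments of 18.7 and 20.6 with atRA. There Hoxb1b had 106 and 90 fragments with atRA and no control peak, and Sox3 had 85 and 94 with atRA and 10 in control replicate 2 alone. The site on chromosome 3 at 51505928 to 51506877 had 131 and 118 Meis2b fragments, and that on chromosome 2 at 31038565 to 31039255 had 119 and 95, both with atRA. The last of the 5, on chromosome 24 at 341721 to 342779, had 126 and 119 fragments with atRA. It was the only one of the 5 with a peak in both Sox3 controls, of 16 and 51 fragments, against 139 and 133 with atRA. All 5 held a Hoxb1b peak in both atRA libraries and in neither control library. Raraa peaks at these sites were lower, up to 83 and 40 fragments with atRA on chromosome 24, and the chromosome 3 site had none in any Raraa library. The sites were 691 to 1059 bp wide.

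The control-only sites with the best ranks had lower pileups in their own libraries, and 3 of the 5 lay on chromosome 4. That chromosome held 4.35% of all control-only sites, and 10.3% of those found at q of at most 1e-05. The first of the 5 sites, at 53866280 to 53866543 on chromosome 4, had 15 and 31 fragments in control replicates 1 and 2. Those at 42208024 to 42208389 and at 42511451 to 42511708 had 11 and 12 and 10 and 10 fragments. The site on chromosome 16 at 33473155 to 33473538 had 14 in both controls, and that on chromosome 17 at 39978655 to 39978924 had 16 and 21. Fold enrichment at the first site was 12.7 and 21.2 in control replicates 1 and 2, against 13.0 to 20.6 with atRA at the 5 atRA-only sites above. At the other control-only sites named here it was 6.96 to 9.82. These 5 control-only sites were picked for having no Meis2b peak in either atRA library. Peaks of the other antibodies were present in 4 to 6 of their 6 atRA libraries at each, and in 1 to 5 of their 6 control libraries. Over all control-only sites the median was 2 of 6 with atRA and 2 of 6 in controls.

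The shared sites with the best ranks included 4 that were tall with every antibody. On chromosome 20 at 4437641 to 4438055, Meis2b had 184 and 122 fragments with atRA, against 180 and 198 in controls. Hoxb1b there had 203 and 188 with atRA, against 168 and 182 in controls, and Raraa and Sox3 had at least 160 in every library. On chromosome 4 at 57548136 to 57548704 the Meis2b pileups were 116 and 80 with atRA and 246 and 251 in controls. On chromosome 5 at 826042 to 826723 they were 103 and 79 with atRA and 226 and 255 in controls. Both pileups were higher in the controls than with atRA. Fold enrichment kept this order on chromosome 4, at 24.6 and 21.9 with atRA and 31.3 and 29.1 in controls, but not on chromosome 5, at 19.2 in both atRA libraries and 18.4 and 17.9 in controls. On chromosome 17 at 53292585 to 53292880 they were 140 and 120 with atRA and 66 and 90 in controls. The site on chromosome 14 at 31575125 to 31575928 behaved differently between antibodies. Meis2b had 168 and 139 fragments with atRA and 87 and 78 in controls, whereas its fold enrichment was 15.5 and 16.9 with atRA and 22.2 and 20.8 in controls. Hoxb1b had 111 and 89 with atRA and 20 and 17 in controls, while Sox3 had 132 and 138 with atRA and 114 and 159 in controls. At all 5 sites, every one of the 12 Hoxb1b, Raraa and Sox3 libraries had a peak. Of the 2333 shared sites, 420 did so (18.0%), against 254 of the atRA-only sites (1.81%) and 42 of the control-only sites (1.29%). Those 420 had median pileups of 40 and 29 fragments with atRA and 15 and 17.5 in controls, and the other 1913 shared sites had 23 and 16 with atRA and 8 in both controls. What makes a site be called with every antibody was not tested.

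Across the 2333 shared sites, ranks of the authors' p followed each other more closely between atRA replicates than between control replicates. Spearman's rho across sites was 0.850 between the atRA replicates, 0.363 to 0.434 between an atRA and a control library, and 0.549 between the control replicates. Sites are not independent replicates, and the 90th percentile of pileup at these sites was 68 and 52.8 fragments with atRA, against 29 and 33 in controls; its part in these values was not tested. Summit distances were similar within and between treatments, though the rule that peaks must overlap itself limits them. The median distance between the summits of replicates was 58 bp at atRA sites and 64 bp at control sites, and between treatments it was 59 bp at shared sites (first replicates). In the same order, 45.6%, 42.0% and 45.9% of these summits lay within 50 bp of each other.

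Shared sites were the widest. The median width was 371 bp for atRA-only sites, 304 bp for control-only sites and 561 bp for shared sites. More than 1000 bp were covered by 124 atRA-only sites (0.881%), by no control-only site and by 135 shared sites (5.79%). Shared sites merge peaks of 4 libraries and were stronger, so single peaks of matched pileup were compared as well, a choice made after seeing the data. Among peaks with 10 to 14 fragments, the median width in atRA replicates 1 and 2 was 293 and 297 bp at atRA-only sites, against 335.5 and 332 bp at shared sites. In control replicates 1 and 2 it was 260 and 255 bp at control-only sites, against 300 and 297 bp at shared sites. Peaks at shared sites were thus wider in each of the 4 libraries within this range of pileup. A wider peak also overlaps another more easily, so the rule for shared sites itself can favour width. Pileups were not matched within the range, and neither part was tested. Over all peaks, the median width per library was 192 and 185 bp with atRA, against 201 and 193 bp in controls, a difference of -8.50 bp (exact permutation test, two-sided, p = 0.333, the smallest possible). The narrowest peak was 145 bp in both atRA libraries, against 174 and 165 bp in controls, and this lower bound differed between the treatments in the same direction. Among peaks with q of at most 1e-05 the difference turned to 35.0 bp, wider with atRA.

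Sites of all classes were found on all 25 chromosomes. Chromosome lengths were approximated by the last peak of any library. The density of atRA-only sites was 5.62 per Mb on chromosome 4 and between 9.50 (chromosome 21) and 13.96 per Mb (chromosome 23) on the others. Control-only sites ranged between 1.71 per Mb on chromosome 14 and 2.85 on chromosome 3, and shared sites between 1.25 on chromosome 25 and 2.38 on chromosome 17. The atRA-only class made up 64.04% of the sites of chromosome 4, the lowest share, and up to 74.6% on chromosome 25.

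**Figure D3:**
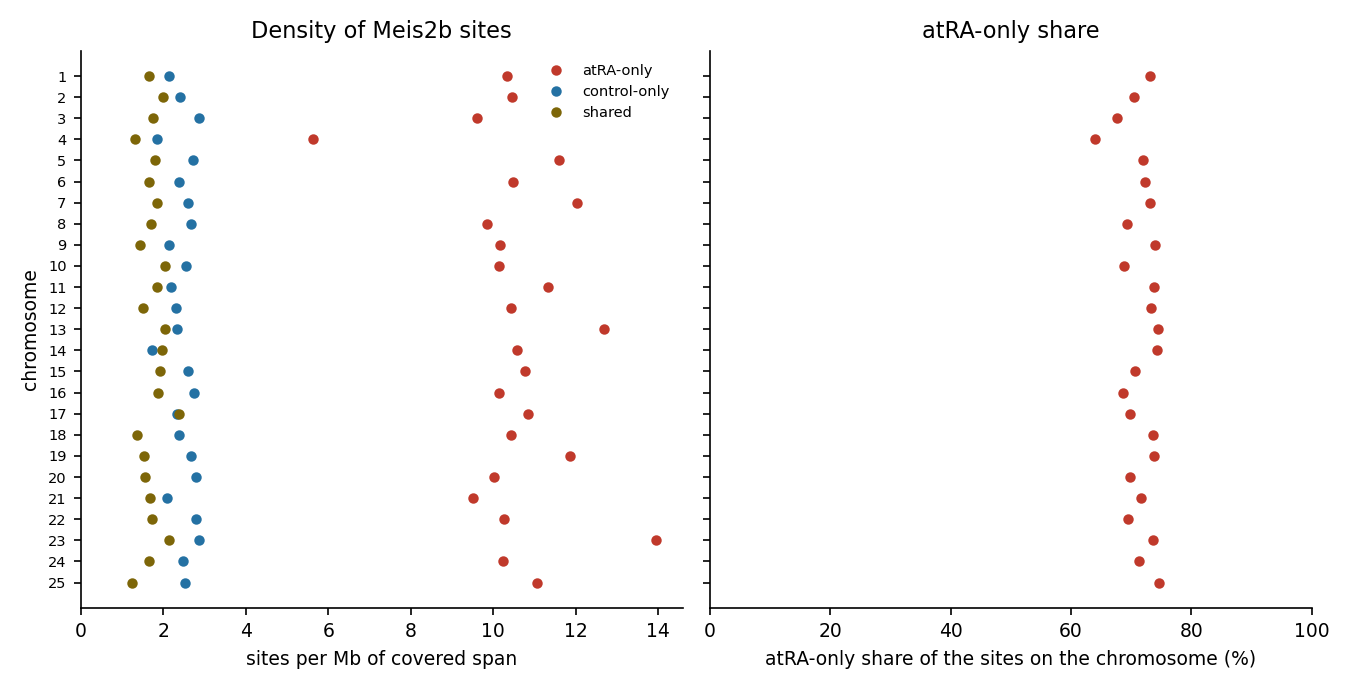
Left, Meis2b sites per Mb of covered span on each chromosome for atRA-only (red), control-only (blue) and shared sites (olive). Right, atRA-only sites as a percentage of all sites on the chromosome; chromosome 4 stands lowest in both, at 5.62 atRA-only sites per Mb and 64.04%.

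Within chromosome 4 the shortfall lay beyond 30 Mb, the boundary of a 10 Mb bin picked once the data were seen. The distal part of this chromosome is known in zebrafish for repeats, late replication and heterochromatin. There, 58 atRA-only, 67 control-only and 35 shared sites were found. Per Mb, this was 1.24 atRA-only sites against 10.5 over all chromosomes, 1.44 control-only sites against 2.43, and 0.751 shared sites against 1.74. The atRA-only class made up 36.25% of the 160 sites there and 71.8% of the 19502 others. Bins of 10 Mb from 30 to 70 Mb held 9, 4, 8 and 13 atRA-only sites, while the bin from 10 to 20 Mb held 147. The last stretch, from 70 Mb to the end, held 24 atRA-only sites, or 3.62 per Mb, and these were 57.1% of its sites. Single peaks followed the same direction with less contrast. The part beyond 30 Mb held 0.758% and 0.871% of the peaks of the atRA libraries, against 1.14% and 1.23% in controls. The Meis2b groups did not overlap, but 2 libraries against 2 cannot give a two-sided exact p below 0.333. With Hoxb1b, Raraa and Sox3 these shares overlapped between treatments. For Hoxb1b they were 1.087% and 1.002% with atRA, against 1.019% and 1.202% in controls. Peak density beyond 30 Mb was below that over all chromosomes in every 80% epiboly library of all 4 antibodies. In atRA replicate 1 it was 20.2 against 64.8 peaks per Mb for Hoxb1b and 26.1 against 100.9 for Sox3. The low density was thus not particular to Meis2b or to atRA. Among the 2333 strongest atRA-only sites, the longest stretch without a site was 28.3 Mb on this chromosome. Reads in repeats are hard to place, and how the authors treated them is not given in the sources used here.

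Spacing differed between the classes. The median distance to the next site of the same class was 41.9 kb for atRA-only, 251 kb for control-only and 252 kb for shared sites, with means of 95.2, 410 and 572 kb. The median was 0.440 of the mean for atRA-only sites, 0.612 for control-only sites and 0.441 for shared sites. A lower ratio means that short distances are balanced by long empty stretches. Sites placed at random also give a median below the mean. No random placement was made, so the ratios are compared only between classes. Because spacing depends on number, the strongest 2333 sites of each class were also compared. The medians were then 230 kb for atRA-only, 362 kb for control-only and 252 kb for shared sites, with ratios to the mean of 0.406, 0.630 and 0.441. Within 10 kb of the next site of their class lay 7.63% of these atRA-only sites, 2.30% of the control-only sites and 11.6% of the shared sites. The distance to the nearest shared site had a median of 155 kb from atRA-only sites and 207 kb from control-only sites, and of 92.0 kb between shared sites. Spacing is given as a description, since sites are not replicates.

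**Figure D4:**
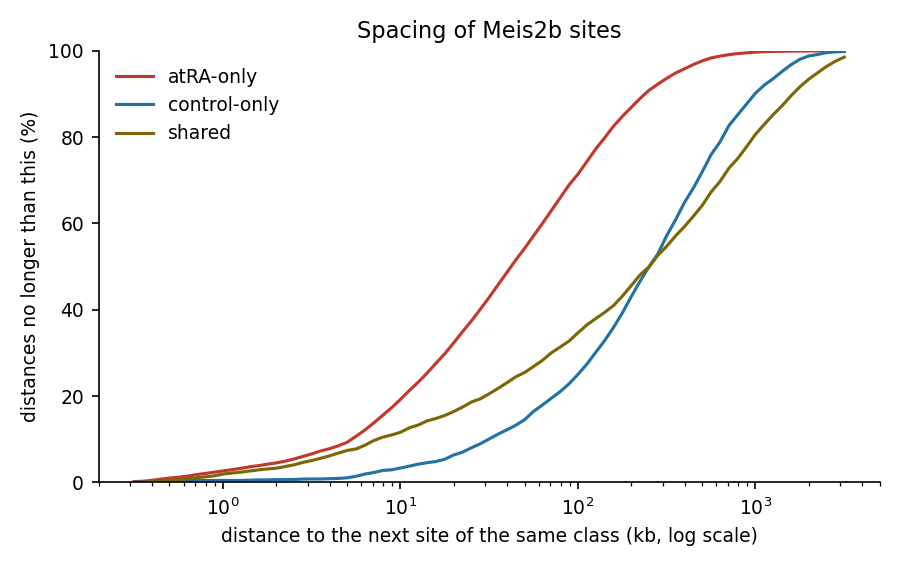
Percentage of distances (vertical axis) no longer than the value on the horizontal axis (kb, log scale), between neighbouring sites of the same class. Distances between atRA-only sites (red) are shortest, with a median of 41.9 kb, and those between control-only (blue) and shared sites (olive) have medians of 251 and 252 kb, with a larger fraction of short distances among shared sites.

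When sites no more than 12.5 kb apart were joined, 1159 clusters held at least 3 sites and took in 4669 sites. The share of a class found in such clusters was 23.9% of atRA-only, 14.3% of control-only and 36.0% of shared sites. Over all sites it was 23.7%, close to the atRA-only share. The cluster with the most atRA-only sites spanned 112 kb on chromosome 5, at 23866485 to 23978174. It held 16 atRA-only and 3 shared sites, and 20 and 21 Meis2b peaks with atRA against 11 in both controls. The next, on chromosome 13 at 17191919 to 17287107, held 13 atRA-only, 1 control-only and 5 shared sites, with 23 and 20 peaks with atRA against 8 and 9 in controls. The one after it, on chromosome 6 at 36632914 to 36679906, held 10 atRA-only, 1 control-only and 2 shared sites, with 14 and 12 peaks with atRA against 6 and 5. Hoxb1b peaks in these 3 clusters numbered 26 and 22, 22 and 22, and 12 and 14 with atRA, against 8 and 13, 10 and 11, and 3 and 6 in controls. Sox3 peaks numbered 27 and 28, 25 and 22, and 15 and 15 with atRA, against 15 and 23, 17 and 17, and 10 and 11 in controls. Raraa peaks overlapped between treatments in all 3, with 27 and 16, 21 and 14, and 16 and 10 with atRA, against 7 and 24, 9 and 19, and 2 and 12 in controls. The cluster with the most shared sites spanned 56.0 kb on chromosome 10, at 16825929 to 16881959, and held 3 atRA-only, 3 control-only and 16 shared sites. Meis2b had 24 peaks there in both atRA libraries, against 21 and 28 in controls. Hoxb1b had 32 and 26 with atRA against 22 and 25 in controls, Sox3 had 38 and 34 with atRA against 23 in both controls, and Raraa had 48 and 32 with atRA against 33 and 43 in controls.

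The libraries of the other 3 antibodies took no part in choosing the sites, and so they could be asked whether Meis2b sites were occupied by other factors. At atRA-only sites, Hoxb1b peaks were present at 74.1% and 67.1% of sites with atRA, against 19.2% and 19.6% in controls. Sox3 peaks were present at 77.8% and 78.0% with atRA, against 56.2% and 63.6% in controls. Raraa peaks were present at 72.2% and 36.6% with atRA, against 14.9% and 44.7% in controls. The treatments did not overlap with Hoxb1b or Sox3, and did with Raraa. Averaged over the 3 antibodies, 67.6% of atRA-only sites held a peak in atRA libraries and 36.4% in control libraries. The difference of 31.3 percentage points had the same direction with all 3 antibodies. Few rearrangements of treatment labels gave as large a difference (exact permutation test, two-sided, p = 0.0185, adjusted 0.0370 by Benjamini-Hochberg over 4 tests). For Raraa alone it was 24.6 points, with SDs between replicates of 25.1 with atRA and 21.0 in controls. Over all Meis2b sites, of which 71.5% were atRA-only, Hoxb1b means were 66.8% with atRA and 23.7% in controls. The means over all sites were 55.9% and 33.5% for Raraa, and 74.2% and 59.1% for Sox3. The mean difference over the 3 antibodies was 31.7 points for the atRA-only sites with no peak in either control library, a subset picked once the data were seen. The sites had been chosen through the Meis2b atRA libraries, and the labels do not say whether antibodies shared chromatin. If they did, the other libraries would not be independent of that choice.

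Shared sites were more often occupied, in both treatments. They were also wider, with a median of 561 bp, against 371 bp for atRA-only and 304 bp for control-only sites. An overlap of 1 bp counted as occupied, and the part of width was not tested. Hoxb1b peaks were present at 92.1% and 87.7% of shared sites with atRA, against 50.1% and 47.7% in controls. Sox3 peaks were present at 94.0% and 93.6% with atRA, against 84.2% and 86.3% in controls. The mean difference was 23.6 points over the 3 antibodies (exact permutation p = 0.0370, adjusted 0.0494). At control-only sites Hoxb1b peaks were rarer with atRA than in the other classes, and Sox3 peaks were rarer in every library. Hoxb1b peaks were present at 34.1% and 33.8% with atRA and 22.3% and 26.9% in controls, and Sox3 peaks at 44.1% and 44.6% with atRA and 33.3% and 41.3% in controls. The mean difference was 10.1 points, and many rearrangements of treatment labels gave as large a difference (exact permutation p = 0.324, adjusted 0.324). As a baseline, Meis2b peaks seen in 1 atRA library alone held a Hoxb1b peak in 22.2% ± 2.72 of cases with atRA and 8.80% ± 1.195 in controls (SD, n = 2 libraries each). The means were 26.7% and 14.2% for Raraa, and 31.4% and 23.5% for Sox3. At Meis2b peaks of 1 control library alone, they were 19.2% with atRA and 11.6% in controls for Hoxb1b. For Raraa these were 27.5% and 16.7%, and for Sox3 26.1% and 21.8%. The direction of the difference was thus not particular to atRA-only sites. Single peaks were not matched to sites in width.

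**Figure D5:**
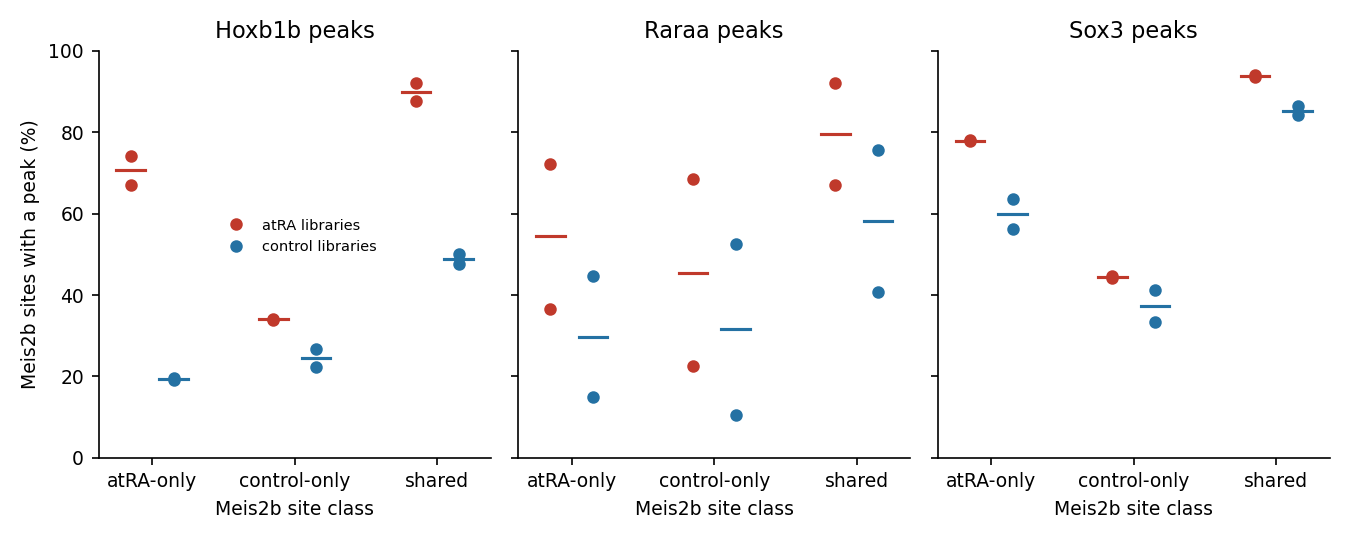
Percentage of Meis2b sites of each class that held a peak of Hoxb1b, Raraa or Sox3 (panels, left to right). Each point is 1 library, with atRA in red to the left of control in blue, and lines are means of 2 libraries; for Hoxb1b at atRA-only sites the atRA points lie at 74.1% and 67.1% and the control points at 19.2% and 19.6%.

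These differences rest on few libraries and on unequal lists. The Hoxb1b lists held 86866 and 71640 peaks with atRA, against 42278 and 58750 in controls, and the Raraa lists 254915 and 59938 with atRA, against 23920 and 131936. With equal lists of the 10000 strongest peaks of each other antibody, chosen once the data were seen, the difference at atRA-only sites was 15.8 points and kept its call (adjusted exact permutation p = 0.0185). The call at atRA-only sites was lost without Raraa control replicate 1 (26.3 points, adjusted p = 0.111), Raraa atRA replicate 1 (25.4 points, adjusted p = 0.0926) or Meis2b control replicate 2 (31.4 points, adjusted p = 0.0741), all by the same exact permutation test. It was also lost without Meis2b atRA replicate 1 (18.0 points) or 2 (16.6 points), when single-library peaks stand in for sites (adjusted exact permutation p = 0.111 in both). The call at shared sites was lost without these same 5 libraries, with 17.8 to 26.7 points (adjusted exact permutation p of 0.0741 to 0.148). In a block of same-numbered libraries neither call was kept (adjusted exact permutation p = 0.125 in both).

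Hoxb1b, Raraa and Sox3 peaks were all more frequent in the strongest than in the weakest atRA-only sites. In the strongest of 10 equal classes, Hoxb1b peaks were present at 94.2% and 90.7% of sites with atRA, against 27.2% and 21.7% in controls. In the weakest they were present at 50.1% and 43.0% with atRA, against 15.3% and 17.3% in controls. Sox3 peaks in controls were present at 66.4% and 72.5% of the strongest class and at 40.8% and 51.4% of the weakest. Raraa peaks were present at 84.6% and 56.4% of the strongest class with atRA and 22.9% and 51.4% in controls. In the weakest class Raraa peaks were present at 63.6% and 22.0% with atRA and 8.53% and 37.7% in controls. The difference between treatments in Hoxb1b occupancy was therefore present at both ends of the ranking. Site width was not held equal along this ranking.

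Applying the same both-replicates rule to the other antibodies placed these sites among their own gains and losses. A Hoxb1b atRA-only site was found at 55.7% of atRA-only Meis2b sites, at 17.8% of control-only sites and at 55.6% of shared sites, with 49.4% over all Meis2b sites. For Raraa atRA-only sites the percentages were 25.4%, 15.2% and 31.8%, with 24.5% over all. For Sox3 they were 23.4%, 13.0% and 15.2%, with 20.7% over all. Control-only sites of the other antibodies were found at few Meis2b sites, at 1.37% of all for Hoxb1b, 2.2% for Raraa and 2.28% for Sox3. At control-only Meis2b sites these were 4.11%, 3.28% and 5.21%. By the same rule, the antibody's own sites were 81.3% atRA-only, 11.2% control-only and 7.56% shared for Hoxb1b. They were 76.5%, 11.2% and 12.3% for Raraa, and 44.8%, 14.6% and 40.6% for Sox3.

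A Sox3 site in controls was found at 50.6% of atRA-only, 23.3% of control-only and 77.9% of shared Meis2b sites, with 49.3% over all. Of the atRA-only sites, 5116 (36.4%) held both a Sox3 control site and a Hoxb1b atRA-only site, and 1999 (14.2%) held the Sox3 control site without the Hoxb1b one. A further 2718 (19.3%) held the Hoxb1b atRA-only site without a Sox3 control site, and 4234 (30.1%) held neither. A Sox3 site with atRA was present at 72.3% of atRA-only sites, so the absence of a Sox3 control site is not the absence of Sox3 under atRA. A Hoxb1b atRA-only site was present at 71.9% of the 7115 atRA-only Meis2b sites with a Sox3 control site, against 39.1% of the 6952 without. Sox3 control peaks and Hoxb1b atRA peaks were both more frequent at stronger Meis2b sites. This split was not matched for strength or width, and their part in it was not tested. With all 3 other antibodies, sites under atRA coincided at 30.5% of atRA-only, 10.3% of control-only and 62.1% of shared Meis2b sites. Over all Meis2b sites it was 30.9%, so the atRA-only share was close to that background. No other antibody had an atRA site at 21.4% of atRA-only, 58.4% of control-only and 6.00% of shared sites, with 25.7% over all.

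Raraa libraries of untreated embryos at later stages also had peaks at part of these sites. Their lists held 109146 and 116351 peaks at 5 somites, and 115452 and 112006 at 24 hours post fertilisation. At 5 somites, Raraa peaks were present at 37.8% and 37.2% of atRA-only, 47.0% and 47.1% of control-only and 67.9% and 68.2% of shared Meis2b sites (replicates 1 and 2). At 24 hours post fertilisation the values were 33.3% and 43.6%, 38.6% and 47.3%, and 57.5% and 73.7%. At both stages shared sites were covered most often and atRA-only sites least often, in each of the 4 libraries. An overlap of 1 bp counted here too, and the part of site width was not tested. No baseline over other regions is given for these stages.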

How the data were processed

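Peak lists of 20 ChIPmentation libraries were used, 2 per group, with groups taken from the labels. Per the submitters' processing notes, Bowtie, SAMtools and MACS2 were used on GRCz10 (danRer10); their versions, the input control and the handling of duplicate reads are not given in the sources used here. The deposited lists have no header. Each holds peaks of 1 library at q of at most 0.05, with the authors' fold enrichment (a ratio over local background), −log10 p and −log10 q per summit. Total reads are unknown. Summit pileup k and background b were solved by taking fold as (k+1)/(b+1) and p as the upper Poisson tail above k at mean b, to within 0.002 in −log10 p, for 100% of the peaks. The 0.001 quantile of b served as depth index; it also depends on fragment length. Peaks on other sequences (2.08% to 2.39% of the Meis2b lists) were left out.

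Overlapping peaks of both replicates were merged into sites with Python 3.11.15, pandas 2.3.3 and scipy 1.17.1. On simulated lists with well separated sites, the site rule gave back the number of sites in each class. Pileups were recovered for 100% of simulated summits, which did not reach the highest pileups and backgrounds of the data. These simulations check the code, and not how often the rule errs on real lists. Occupancy was tested by exact permutation of treatment labels within each antibody; the labels do not say whether antibodies shared chromatin. Named sites were the 5 best per class by mean rank of the authors' p, without a peak in the other treatment for the 2 treatment-specific classes, and clusters were those with the most atRA-only or shared sites. The members, lists and tests were chosen with earlier results of these data known. The labels do not say whether same-numbered libraries are paired, and the numbers were not used as a pairing. Over all sites, deviations of same-numbered libraries correlated at 0.0061 for Meis2b, 0.0012 for Hoxb1b, -0.101 for Raraa and 0.0078 for Sox3. By the site rule every Meis2b site holds peaks of both replicates of a treatment, so the Meis2b value cannot decide on a pairing. Genes and sequences at the sites are not reported, since no genome or annotation of GRCz10 was used here.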

Additional observations from a re-analysis of the deposited data

Results flagged for a closer look

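The rise in occupancy by Hoxb1b, Raraa and Sox3 with atRA differed between classes of Meis2b sites. The atRA minus control difference, averaged over these 3 antibodies, was 31.3 percentage points at atRA-only sites and 23.6 points at shared sites. The gap between them was 7.67 points, with the same direction for all 3 antibodies (exact permutation test, two-sided, p = 0.0185, adjusted 0.0370). It is listed because this test of the difference passed the threshold, but the classes were not chosen alike. Sites of the atRA-only class had to be found with Meis2b in the atRA libraries and not in both controls, and shared sites in both treatments, so the gap is not independent of how the classes were chosen. The gap turned to -3.07 points with equal lists of the 10000 strongest peaks of the other antibodies, and to -4.95 and -5.48 points without Meis2b atRA replicate 1 or 2. In controls, Sox3 peaks were already present at 84.2% and 86.3% of shared sites and at 56.2% and 63.6% of atRA-only sites; the part of this level in the gap was not tested.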

How the results depend on the processing

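In the order atRA-only, control-only and shared, there were 7845, 292 and 927 sites at q of at most 1e-05, and 5118, 560 and 948 with the 10000 strongest peaks per library, where the ratio of peak numbers has no value. Shared sites numbered 1194 at a reciprocal overlap of 50% and 1235 with summits within 100 bp. Leaving out 1 Meis2b library gave 11620 to 55610 atRA-only, 2625 to 44674 control-only and 2682 to 4781 shared sites. The difference in median peak width, -8.50 bp, turned to 35.0 bp at q of at most 1e-05 and to 133.5 bp with the 10000 strongest peaks; the cause was not tested.

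Occupancy differences between treatments (points; exact permutation, adjusted p) were 16.6 to 37.2 at atRA-only sites and 17.8 to 29.4 at shared sites without 1 library, and their gap was -5.48 to 9.42, with -4.95 and -5.48 without Meis2b atRA replicate 1 or 2. At atRA-only sites, at shared sites and for their gap, they were 21.3, 14.96 and 6.37 without Hoxb1b, 34.6, 24.7 and 9.91 without Raraa, and 37.9, 31.2 and 6.73 without Sox3. With 2 antibodies the smallest possible exact permutation p is 0.0556, so these could not be called. Only leaving out Raraa reached that value (adjusted exact permutation p = 0.0556 for all 3). Without Hoxb1b the adjusted exact permutation p was 0.222, 0.296 and 0.222 in the same order, and without Sox3 it was 0.148 for each. The gap was 7.05 with summits within 100 bp (exact permutation p = 0.0617). With the 10000 strongest peaks of the other antibodies alone it was -3.07, and the difference at control-only sites was -0.79. Under a replicate block the values stayed at 31.3, 23.6 and 7.67 with an exact permutation p of 0.125 each, and 0 of 3 calls were kept. Same-numbered Raraa libraries correlated at -0.101; with their numbers crossed in the block, a choice made after seeing the data, there were 3 calls, with 10.1 at control-only sites now called and the gap of 7.67 not. Of the other values (shares, widths, chromosome 4 and spacing), 69 stayed within 1.5 times (distances and widths) or within the Wilson interval (shares) of the value given, and 53 did not. With unknown read totals, absence of a peak does not show absence of binding.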
